A study of Mus musculus with 6 samples.

Results

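The genes described here are 10 feedback inhibitors and transcriptional effectors of ERK signalling, selected by symbol from the 24736 genes of the table. They are the Sprouty genes Spry1, Spry2 and Spry4, the Sprouty-related genes Spred1 and Spred2, the phosphatase genes Dusp4 and Dusp6, and the PEA3 ETS factor genes Etv1, Etv4 and Etv5. RNA-seq was performed on wild-type mouse embryonic stem cells (ESCs) and on the epiblast-like cells (EpiLCs) derived from them, with 3 biological replicates of each. ESCs came from the XY HM1 TetON line, a single line, and were propagated at 10% serum and 1000 U/ml LIF on mitotically inactivated feeder fibroblasts. EpiLCs had been grown for 48 h without serum or LIF in N2B27 medium containing bFGF at 10 ng/ml and LGK974, an inhibitor of WNT secretion, at 5 µM. The 48 h are those of the labels and of the study's results text, whereas its culture methods give a longer time for EpiLCs. Basal medium, serum, LIF, feeders, FGF, LGK974 and time differed between the groups as labelled, although the study's methods leave unclear whether LGK974 was also in ESC medium, so their contributions to a difference cannot be told apart.

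FGF receptors signal through RAS and the RAF, MEK and ERK kinases, and in mouse ESCs ERK activity promotes exit from naive pluripotency. The pathway limits itself by inducing its own inhibitors. Sprouty proteins restrain signalling between the receptor and RAF, Spred proteins recruit the RAS inactivator neurofibromin, and DUSP4 and DUSP6 remove the activating phosphates of ERK in the nucleus and in the cytoplasm, respectively. ETV1, ETV4 and ETV5 are ETS domain transcription factors whose genes are widely used as readouts of FGF and ERK activity. The repressor Capicua (Cic) holds down PEA3, Sprouty and Dusp6 genes in several tissues until ERK inactivates it.

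Because Capicua binds a short word of known sequence, the starts of the genes were searched for it. RefSeq promoter windows of GRCm38.p6, from 250 bases before to 50 after a transcription start, were available for 7 of the 10 genes, with 9 windows in all, but not for Spry4, Dusp4 and Etv4. The bases before the start are shown 5′ to 3′ for Dusp6 (chr10:99262981-99263230, plus strand) and Spry2 (chr14:105896820-105897069, minus strand), which hold a Capicua word and rose in EpiLCs. Etv5 (chr16:22439571-22439820, minus strand), the gene that fell, is shown for comparison and holds none. Neither of the 2 windows of Etv1, which also rose, held one, and 2 of the 9 windows did in all. Capitals mark the reverse complement of a Capicua word.
Dusp6: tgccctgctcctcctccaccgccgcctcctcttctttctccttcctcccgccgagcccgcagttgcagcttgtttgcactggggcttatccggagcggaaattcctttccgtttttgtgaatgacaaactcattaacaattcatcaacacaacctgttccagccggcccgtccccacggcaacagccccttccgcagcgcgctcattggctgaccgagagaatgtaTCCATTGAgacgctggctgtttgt
Spry2: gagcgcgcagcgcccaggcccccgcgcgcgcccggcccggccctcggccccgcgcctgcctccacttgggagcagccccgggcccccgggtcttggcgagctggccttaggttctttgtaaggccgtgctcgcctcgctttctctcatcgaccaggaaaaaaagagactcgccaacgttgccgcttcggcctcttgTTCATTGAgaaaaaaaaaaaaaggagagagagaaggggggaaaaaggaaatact
Etv5: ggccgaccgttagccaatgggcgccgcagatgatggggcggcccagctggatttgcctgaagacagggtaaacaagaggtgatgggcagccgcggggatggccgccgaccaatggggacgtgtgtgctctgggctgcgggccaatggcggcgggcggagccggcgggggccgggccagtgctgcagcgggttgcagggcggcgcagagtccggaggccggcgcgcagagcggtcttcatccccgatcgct
The words searched, on both strands, were TCAATGGA, TCAATGAA, TGAATGGA and TGAATGAA, and 3.84% of all 32851 windows held at least 1 of them. Dusp6 had TCAATGGA, present in 0.670% of windows, opposite to the strand of the gene, at position -24 and again at position 2, counted from the transcription start. Spry2 had TCAATGAA, present in 0.749% of windows, opposite to the strand of the gene at position -54. TGAATGGA (1.21% of windows) and TGAATGAA (1.303%) were in none of the 9 windows. The ETS word CCGGAAGT (3.89% of windows), the AP-1 word TGACTCA (5.20%) and the cAMP response element TGACGTCA (1.79%) were also in none. The shorter ETS core CCGGAA, which is part of CCGGAAGT, was in 14.9% of windows and in that of Spry2, at position 34. These matches are letters in a window and not evidence of binding. The windows of Spred1 and Etv5 at the first base of the gene were the richest in CpG, with 40 and 37 CpG in 300 bases against a median of 7 over all windows. Those of Spry1, Spry2, Dusp6 and Spred2 held 29, 28, 19 and 17, and the 2 windows of Etv1 held 12 and 3.

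Libraries contained 16967741 to 35096210 expected counts (the RSEM estimate of reads per gene), so that 3 counts correspond to 0.0855 to 0.177 CPM and all 10 genes lay far above this floor. Marker genes followed the labels. All 8 naive pluripotency markers fell in EpiLCs, from a summed 2008 to 2671 TPM in ESCs to 61.7 to 86.5 TPM, and all 6 formative markers rose. ESC replicate 2 stood apart by its fibroblast markers, which summed to 1679 TPM against 364 and 130 TPM in ESC replicates 1 and 3 and 86.3 to 95.3 TPM in EpiLCs. Of the 14 fibroblast markers, 12 were tested and 6 fell. The collagen gene Col1a1 reached 489 TPM in ESC replicate 2 and 28.3 to 90.5 TPM in the other ESC libraries, whereas Lum and Fap stayed at or under 0.18 TPM in every library. Primitive streak markers summed to 442, 180 and 139 TPM in ESC replicates 1, 2 and 3, and to 9.94, 8.92 and 64.5 TPM in the EpiLC replicates. Results for the 10 genes are therefore also given without ESC replicate 2 where the call changed. Among the markers, Thy1 was called higher (0.66, edgeR adjusted p = 0.0430) and Tbx6 lower (-1.76, edgeR adjusted p = 0.0454) without that library. Neither was called with all 6 libraries. Tbx6 was also called lower without ESC replicate 3 (-1.89, edgeR adjusted p = 0.0268), a fit that keeps ESC replicate 2. The study separated ESCs from feeders by adhesion before differentiation, and whether this was also done for the ESC libraries is not stated. In bulk RNA, fewer cells expressing a gene cannot be told apart from less RNA per cell.

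The 10 genes did not move together from ESCs to EpiLCs. Dusp4, Dusp6, Etv1, Etv4 and Spry2 rose, Etv5 fell, and Spry1, Spry4, Spred1 and Spred2 did not pass the test. The test was edgeR's quasi-likelihood test at a Benjamini-Hochberg adjusted p of at most 0.05 over the 14468 genes with enough counts, among them all 10. Over all genes tested, 45.4% passed, 22.6% being higher and 22.8% lower in EpiLCs, against 5 higher and 1 lower among the 10. Both phosphatase genes had log2 fold changes above 1 among the higher genes, a size reached by 8.78% of all genes. The TPM (a level scaled for transcript length and library) of the 3 ESC and 3 EpiLC libraries did not overlap for 7 of the 10 genes, against 59.5% of all genes tested. The median log2 fold change was 0.45 for the 10 genes and -0.0017 for all genes. Without ESC replicate 2, 6 of the genes were higher and 2 lower, since Spry4 and Spred2 then passed.

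**Figure D1:**
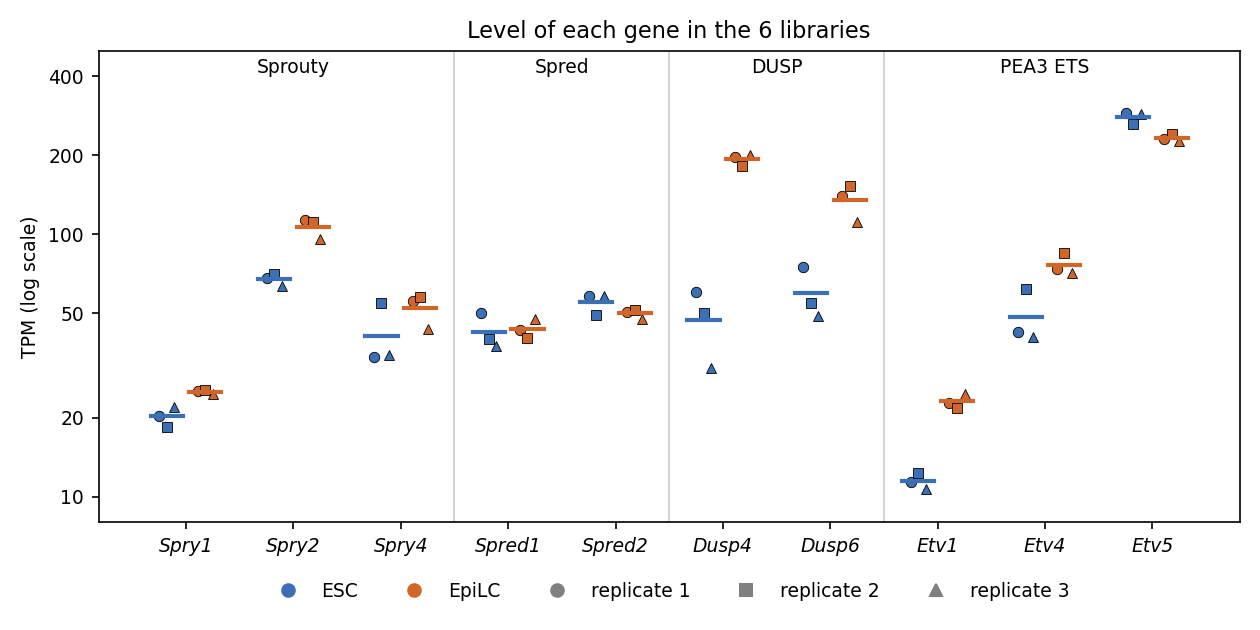
TPM on a log axis of each gene in the 3 ESC (blue) and 3 EpiLC (orange) libraries, with a marker shape for each replicate and a bar at the group mean. Dusp4 and Dusp6 show the largest differences between group means on this axis, Etv5 lies above the other genes in all 6 libraries, and Spry4, Spred1 and Spred2 overlap between groups.

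**Figure D2:**
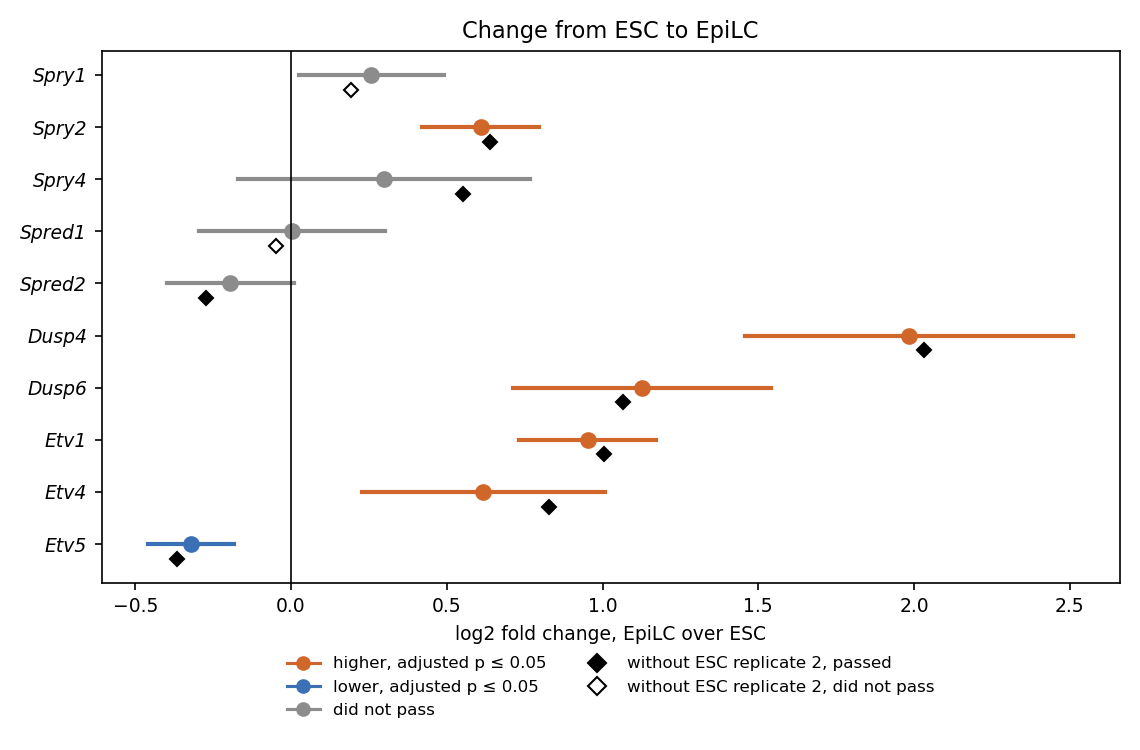
Log2 fold change of each gene from ESC to EpiLC (circles) with 95% confidence intervals (bars), coloured by the edgeR call, and the value without ESC replicate 2 (diamonds, filled where the adjusted p was at most 0.05). Without that library, Spry4 moved from 0.30 to 0.55 and Spred2 from -0.19 to -0.27, and both passed.

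Among the Sprouty genes, Spry2 rose in EpiLCs and Spry1 and Spry4 did not pass. Spry2 (chromosome 14, 105891947 to 105896819 on GRCm38.p6) had 68.3, 70.7 and 63.7 TPM in the 3 ESC libraries (given in the order of the replicate numbers here and throughout), and 113, 112 and 95.9 TPM in the 3 EpiLC libraries. Every EpiLC library was above every ESC library, with means of 67.6 ± 3.56 and 107 ± 9.51 TPM (SD, n = 3 each). The log2 fold change was 0.61 (SE 0.080, edgeR adjusted p = 0.00131), a 1.53-fold rise. Spry1 (chromosome 3, 37639947 to 37644599) had 20.3, 18.4 and 21.96 TPM in ESCs and 25.4, 25.4 and 24.6 TPM in EpiLCs. Its groups did not overlap, and the test gave a log2 fold change of 0.26 (95% confidence interval 0.025 to 0.49, edgeR adjusted p = 0.0694). Spry1 passed without ESC replicate 3 (log2 fold change 0.34, edgeR adjusted p = 0.0239) and on TPM with limma (0.30 on the log2(TPM + 1) scale, adjusted p = 0.0288). Spry4, an ERK target gene in many tissues, had 34.2, 54.6 and 34.6 TPM in ESCs and 55.7, 57.8 and 43.6 TPM in EpiLCs. ESC replicate 2 lay within the EpiLC range whereas the other ESC libraries were below all of them, and the log2 fold change of 0.30 did not pass (95% confidence interval -0.17 to 0.77, edgeR adjusted p = 0.253). Without ESC replicate 2, the library rich in fibroblast markers, the log2 fold change of Spry4 was 0.55 (SE 0.12, edgeR adjusted p = 0.0105). It was 0.17 without ESC replicate 1 (edgeR adjusted p = 0.561) and 0.20 without ESC replicate 3 (0.460). Summed over the 3 genes, Sprouty transcripts went from 129 ± 12.9 to 184 ± 17.5 TPM, and Spry2 supplied 52.6% ± 3.22 and 58.0% ± 0.581 of them. Spry3 was not analysed here.

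Neither Spred1 nor Spred2 passed the test with all 6 libraries. Spred1 (chromosome 2, 117121071 to 117182279) had 50.1, 39.8 and 37.5 TPM in ESCs and 43.2, 40.3 and 47.7 TPM in EpiLCs. The ranges overlapped and the log2 fold change of 0.0030 had a 95% confidence interval of -0.29 to 0.30 (edgeR adjusted p = 0.987). Spred2 (chromosome 11, 19924442 to 20024026) had 58.3, 49.1 and 57.9 TPM in ESCs and 50.5, 51.6 and 47.7 TPM in EpiLCs. Its log2 fold change was -0.19 (95% confidence interval -0.40 to 0.0080, edgeR adjusted p = 0.103), with the ESC replicate 2 value inside the EpiLC range. Without that library Spred2 fell, by 0.27 on the log2 scale (SE 0.065, edgeR adjusted p = 0.0143). The third family member, Spred3, was the one that moved most. It had 5.28, 7.06 and 3.37 TPM in ESCs and 25.9, 25.4 and 24.5 TPM in EpiLCs, a log2 fold change of 2.23 (SE 0.24, edgeR adjusted p = 6.04e-04), but remained below Spred1 and Spred2 in level.

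The ERK phosphatases showed the largest changes of the 10 genes. Dusp4 (chromosome 8, 34807610 to 34819894) ranged from 30.9 TPM in ESC replicate 3 through 50.1 TPM in replicate 2 to 60.5 TPM in replicate 1, and had 196, 182 and 200.1 TPM in EpiLCs. Every EpiLC library was above every ESC library, although the ESC libraries themselves differed 1.96-fold from lowest to highest. The mean rose from 47.2 ± 15.03 to 193 ± 9.58 TPM (SD, n = 3 each), a log2 fold change of 1.99 (95% confidence interval 1.46 to 2.51, edgeR adjusted p = 7.11e-04) or 3.96-fold. Of all genes tested, 3.30% had a higher log2 fold change than Dusp4. Dusp6 (chromosome 10, 99263231 to 99267489), whose product is cytoplasmic and specific for ERK, had 75.0, 54.5 and 48.9 TPM in ESCs and 139, 153 and 112 TPM in EpiLCs. Its groups did not overlap either, and the log2 fold change was 1.13 (95% confidence interval 0.71 to 1.54, edgeR adjusted p = 0.00265), a 2.18-fold rise. Together, Dusp4 and Dusp6 went from 107 ± 27.9 to 327 ± 13.6 TPM. Dusp6 was the more abundant of them in each ESC library and Dusp4 in each EpiLC library, so that the share of Dusp4 was 43.7% ± 4.67 in ESCs and 59.0% ± 4.96 in EpiLCs.

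The PEA3 factors moved in opposite directions. Etv5 (chromosome 16, 22381313 to 22439570), the most abundant of the 10 genes in all 6 libraries, had 289, 263 and 288 TPM in ESCs and 231, 241 and 226 TPM in EpiLCs. Every EpiLC library was below every ESC library, and Etv5 fell by 0.32 on the log2 scale (SE 0.058, edgeR adjusted p = 0.00485), to 0.800 of its ESC level. Etv4 (chromosome 11, 101769747 to 101785310) had 42.5, 61.9 and 40.5 TPM in ESCs and 73.8, 84.8 and 71.2 TPM in EpiLCs. The groups did not overlap and the log2 fold change was 0.62 (SE 0.16, edgeR adjusted p = 0.0208). This call was lost without ESC replicate 1 (0.52, edgeR adjusted p = 0.0688), EpiLC replicate 1 (0.65, 0.0564) or EpiLC replicate 2 (0.55, 0.0714). Without ESC replicate 2 the log2 fold change was 0.83 (edgeR adjusted p = 7.73e-04). Etv1 (chromosome 12, 38780082 to 38870483), the least abundant of the 10 genes in every library, had 11.4, 12.4 and 10.7 TPM in ESCs and 22.8, 21.9 and 24.6 TPM in EpiLCs. It rose 1.94-fold with little spread between replicates, a log2 fold change of 0.95 (SE 0.093, edgeR adjusted p = 4.39e-04).

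With Etv5 lower and Etv4 and Etv1 higher, the summed level of the PEA3 factors went from 340 ± 2.62 TPM in ESCs to 332 ± 13.2 TPM in EpiLCs, with overlapping libraries. Its make-up differed. Etv5 supplied 82.4% ± 3.81 of PEA3 transcripts in ESCs and 70.0% ± 0.625 in EpiLCs, Etv4 14.2% ± 3.56 and 23.0% ± 1.22, and Etv1 3.38% ± 0.260 and 6.97% ± 0.676.

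**Figure D3:**
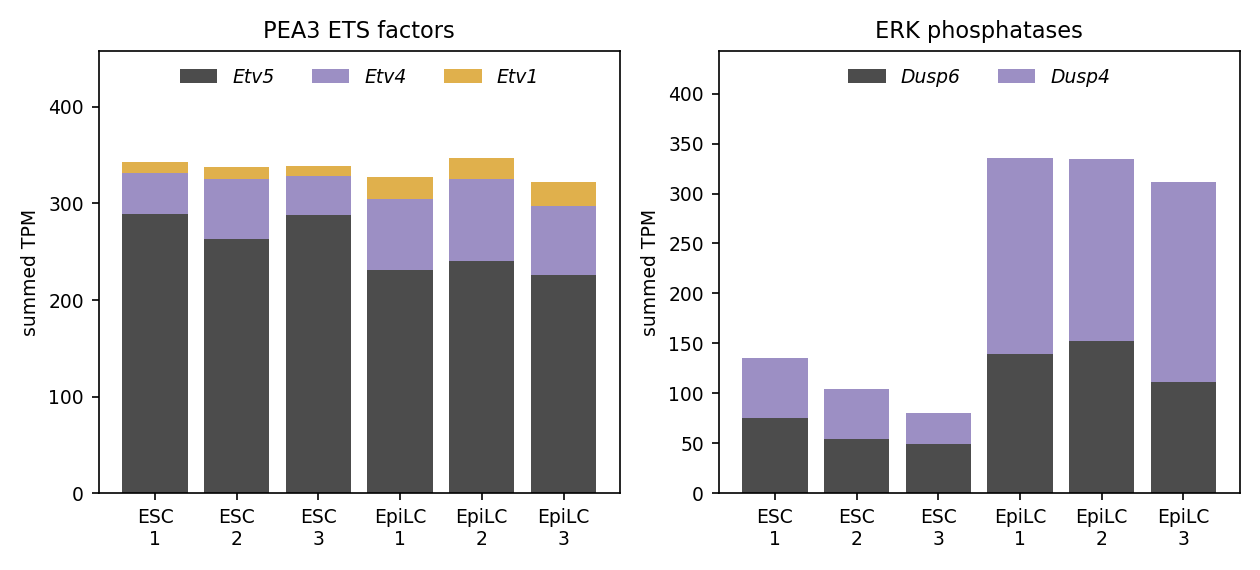
Summed TPM of the PEA3 ETS factors (left) and of the 2 ERK phosphatases (right) in each library, with the contribution of each gene stacked. The PEA3 sum lies between 322 and 347 TPM in all 6 libraries while the Etv5 part shrinks, whereas the phosphatase sum goes from 79.8 to 136 TPM in ESCs to 312 to 336 TPM in EpiLCs.

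To ask whether genes of a family moved by different amounts, the log2 ratio of 6 pairs was compared between groups with an exact two-sided permutation test, whose smallest possible p for 3 against 3 libraries is 0.1. The log2 ratio of Etv1 to Etv5 went from -4.61 ± 0.176 to -3.33 ± 0.131 and that of Etv4 to Etv5 from -2.56 ± 0.410 to -1.61 ± 0.088 (SD, n = 3). The ratio of Dusp4 to Dusp6 changed sign, from -0.37 ± 0.28 to 0.53 ± 0.30. In these 3 pairs and for Spry1 to Spry2 (change of -0.34) the groups did not overlap, which gives the exact p = 0.1 (0.15 after Benjamini-Hochberg adjustment over the 6 pairs). The ratio of Spry4 to Spry2 changed by -0.28 (exact permutation p = 0.2, 0.24 adjusted) and that of Spred1 to Spred2 by 0.19 (exact permutation p = 0.5, 0.5 adjusted), with overlapping groups. These changes were -0.095 without ESC replicate 2 and 0.067 without ESC replicate 3, respectively. This test could therefore not reach 0.05 for any pair.

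By level, the order of the genes was fixed at its ends and loose in the middle in ESCs. Etv5 was first, Spry1 at rank 9 and Etv1 at rank 10 in each of the 6 libraries. In EpiLC replicate 3, however, Spry1 and Etv1 were nearly equal, at 24.64 and 24.62 TPM. In ESCs, the genes between them, from Spry2 through Dusp6, Spred2, Etv4, Dusp4 and Spred1 to Spry4 by mean, each overlapped the next in range. In EpiLCs the order was clearer. Etv5 was followed by Dusp4, then by Dusp6 and Spry2, whose ranges overlapped, then by Etv4, and then by Spry4, Spred2 and Spred1, which overlapped, with gaps between these groups. Dusp4 took ranks 4 to 8 in the ESC libraries and rank 2 in each EpiLC library.

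The ratio of the highest to the lowest replicate was larger in ESCs than in EpiLCs for 9 of the 10 genes, Spry2 being the exception. In ESCs, Spry4 and Etv4 were highest in replicate 2, by 0.45 and 0.39 above their group mean of log2 TPM, together with Spry2 and Etv1 (0.067 and 0.11). Dusp4 and Dusp6 were instead highest in replicate 1 (0.41 and 0.36) and lowest in replicate 3 (-0.56 and -0.26), as was Spred1. The summed fibroblast markers were highest in replicate 2 and the summed streak markers in replicate 1. Primitive endoderm markers, of which 6 of 9 fell in EpiLCs, summed to 302, 654 and 194 TPM in ESC replicates 1, 2 and 3 and to 136 to 167 TPM in EpiLCs. Sparc, which did not pass, made up most of each sum, at 216, 584 and 134 TPM in ESCs and 122 to 152 TPM in EpiLCs. Within ESCs these 9 markers did not share a maximum, since Gata4, Gata6, Pdgfra and Dab2 were highest in replicate 1, Sox17, Sox7, Lama1 and Sparc in replicate 2 and Foxa2 in replicate 3. In EpiLCs, 7 of the 10 genes were lowest in replicate 3, the library with the highest streak markers, with deviations down to -0.26 (Dusp6). The part of fibroblasts, streak-like cells or primitive endoderm in these differences was not tested. The rises of Dusp4, Dusp6, Etv1 and Spry2 and the fall of Etv5 passed without any 1 of the 6 libraries, with log2 fold changes of 1.76 to 2.19, 1.01 to 1.31, 0.90 to 1.01, 0.57 to 0.68 and -0.37 to -0.29.

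**Figure D4:**
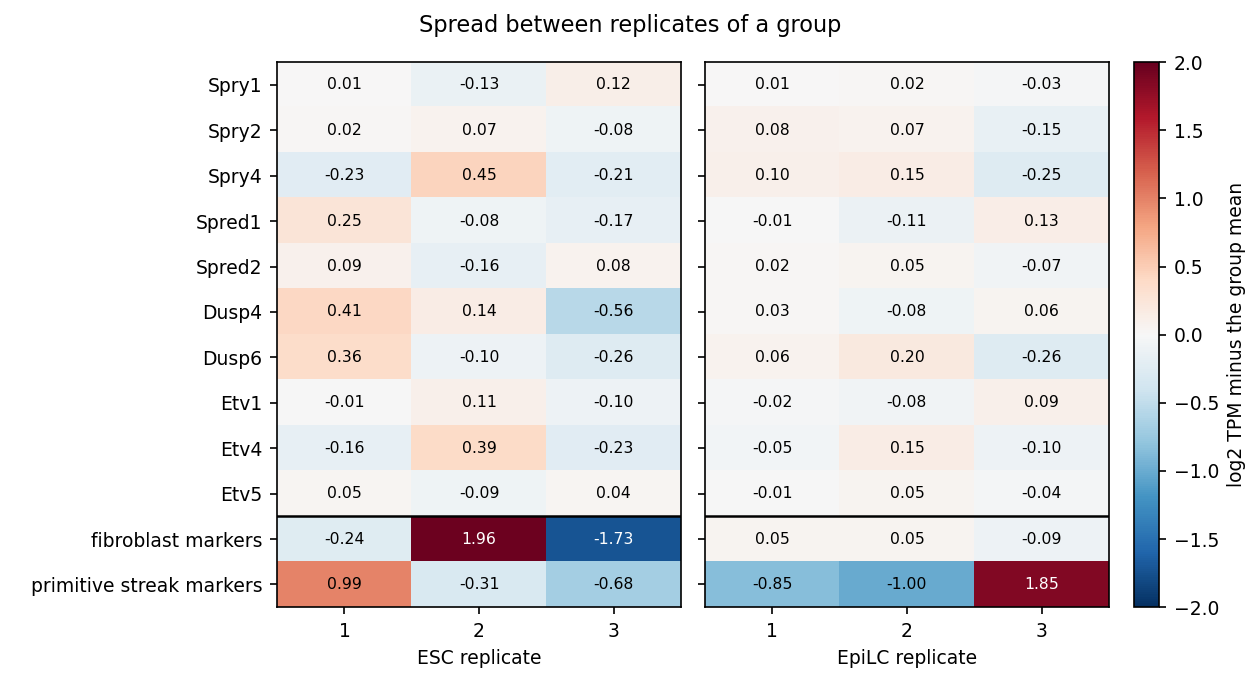
Difference of each library from the mean log2 TPM of its group, for the 10 genes and for the summed fibroblast and primitive streak markers, with red above and blue below the group mean. Spry4 and Etv4 share their ESC maximum with the fibroblast markers (replicate 2), and Dusp4 and Dusp6 share theirs with the streak markers (replicate 1). Of the 10 genes, 5 were highest in ESC replicate 1 and 4 in ESC replicate 2. In EpiLC replicate 3, where streak markers were highest, Dusp4 was at its EpiLC maximum and Dusp6 at its minimum.

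The other genes of the pathway were grouped in 7 lists of 102 genes, of which 94 were tested. In all, 18 rose, 33 fell and 43 did not pass, a share of 54.3% against the 45.4% of all genes, with a median log2 fold change of -0.20. Without ESC replicate 2, 15 rose and 36 fell. The lists share their libraries with the 10 genes, and their medians are descriptions.

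Of 8 other MAP kinase phosphatase genes, 1 rose, 2 fell and 5 did not pass (median -0.21). The share called was 37.5%, against the 45.4% of all genes. Dusp7, which like Dusp6 encodes a cytoplasmic ERK phosphatase, rose from 8.70 ± 0.795 to 26.1 ± 0.040 TPM (log2 fold change 1.53, SE 0.095, edgeR adjusted p = 9.89e-05). Dusp1, an immediate early gene, fell from 193 ± 37.5 to 42.1 ± 7.43 TPM (-2.24, SE 0.17, edgeR adjusted p = 2.04e-04). Dusp5, the inducible nuclear phosphatase, fell from 21.9 ± 7.35 to 10.4 ± 2.29 TPM (-1.12, edgeR adjusted p = 0.0192), a call lost without ESC replicate 1 (-0.94, adjusted p = 0.0588), EpiLC replicate 1 (-1.15, 0.0625) or EpiLC replicate 3 (-0.96, 0.0670). Dusp9, the other cytoplasmic ERK phosphatase, had 35.1 ± 10.5 and 31.1 ± 2.73 TPM and did not pass (-0.22, edgeR adjusted p = 0.419). Dusp2, Dusp8, Dusp10 and Dusp16 did not pass either, at -0.07, -0.20, -0.69 and 0.42. Dusp10 passed without ESC replicate 3 (-0.97, edgeR adjusted p = 0.0161) and Dusp16 without EpiLC replicate 3 (0.63, edgeR adjusted p = 0.0178).

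**Figure D5:**
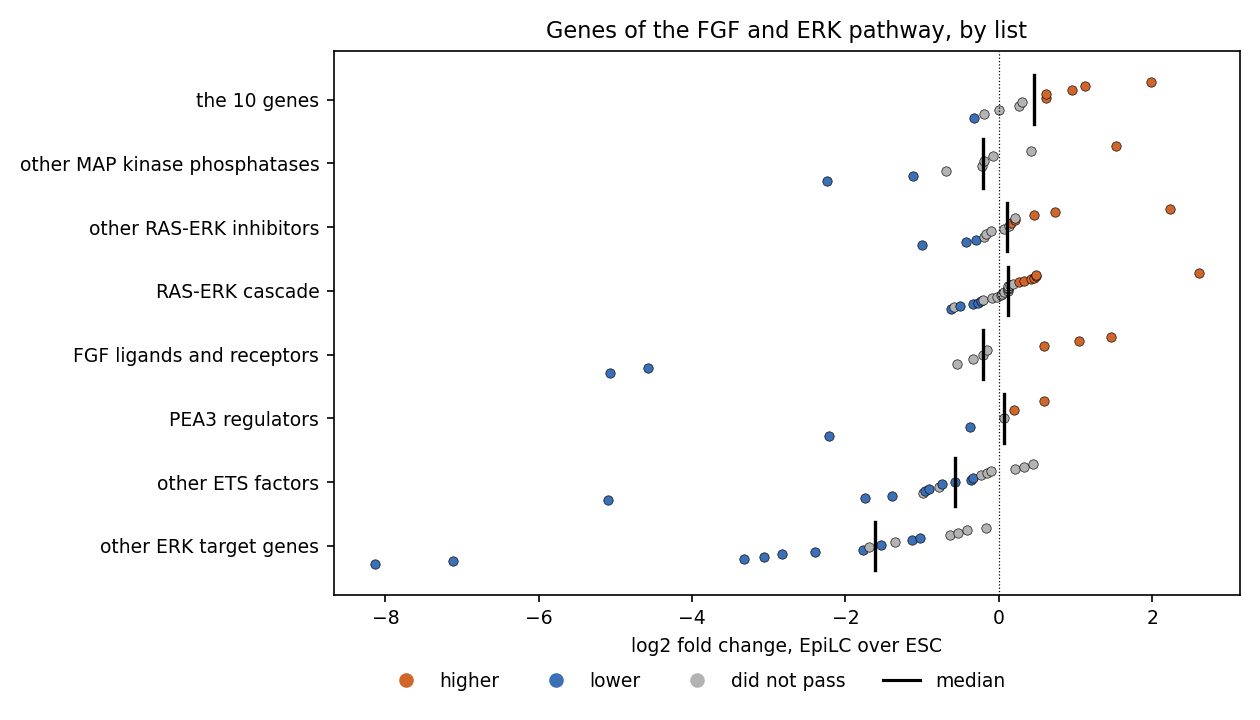
Log2 fold change from ESC to EpiLC of the 10 genes and of each tested gene in the 7 other lists, coloured by the edgeR call, with a bar at the median of each list. The other ETS factors and other ERK target genes lie mainly to the left (medians of -0.58 and -1.61), and the 10 genes have a median of 0.45.

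Of 14 other inhibitors of RAS and ERK signalling tested, 5 rose, 3 fell and 6 did not pass (median 0.10). The share called was 57.1%, against the 45.4% of all genes. The count of rises was 3 without ESC replicate 2, ESC replicate 3 or any 1 EpiLC replicate. Beside Spred3, the rises included Errfi1, an inhibitor of EGF receptor family kinases (0.73, edgeR adjusted p = 0.00414), and Rasa2, a RAS GTPase-activating protein (0.46, 0.00876). Il17rd (Sef), a transmembrane FGF antagonist, fell from 33.5 ± 3.41 to 17.3 ± 2.56 TPM (-1.004, SE 0.13, edgeR adjusted p = 0.00112), and the RAS GTPase-activating protein gene Dab2ip fell by 0.30 on the log2 scale (adjusted p = 0.00786). Nf1, which encodes neurofibromin, was also lower (-0.43, edgeR adjusted p = 0.0378), but not without ESC replicate 1 (-0.46, 0.0723), ESC replicate 3 (-0.32, 0.0868), EpiLC replicate 1 (-0.45, 0.0896) or EpiLC replicate 3 (-0.31, 0.104), and not with limma on log2(TPM + 0.1) (-0.37, 0.0978) or log2(TPM + 1) (-0.34, 0.102).

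The 25 genes of the cascade itself, from adaptors to ERK substrates, had 7 higher, 5 lower and 13 not passing, a share of 48% called against the 45.4% of all genes, and a median of 0.11. Without EpiLC replicate 1, 4 were higher and 2 lower, and without EpiLC replicate 2 or 3, 3 were lower. With limma on TPM, at either pseudocount, 8 were higher and 2 lower. Apart from the scaffold gene Ksr2, which rose from 0.230 ± 0.050 to 1.49 ± 0.221 TPM (2.60, edgeR adjusted p = 4.36e-04), their log2 fold changes lay within 1. That of Ksr2 was 1.01 with limma on log2(TPM + 1), and the gene was not tested with the filter of 10 counts in every library. Hras rose by 0.48 (edgeR adjusted p = 0.0108) and the adaptor gene Gab1 fell by 0.62 (0.00449). The scaffold gene Ksr1 and the ERK-activated kinase genes Rps6ka2 and Rps6ka3 had log2 fold changes of -0.51 (edgeR adjusted p = 0.0422), 0.49 (0.0340) and -0.34 (0.0116). The calls of Ksr1 and Rps6ka2 were lost without EpiLC replicate 1 (edgeR adjusted p = 0.155 and 0.0985), EpiLC replicate 3 (0.127 and 0.0759) or ESC replicate 1 (0.0908 and 0.0886), that of Ksr1 also without ESC replicate 3 (0.0877), with no filter (0.0558), upper-quartile normalization (0.0531) and limma on log2(TPM + 1) (0.0833) or log2(TPM + 0.1) (0.0982), and that of Rps6ka2 without EpiLC replicate 2 (0.0863). The call of Rps6ka3 was lost without EpiLC replicate 1 (0.0658) or EpiLC replicate 2 (0.0564) and with limma on log2(TPM + 1) (0.0602) or log2(TPM + 0.1) (0.0555).

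Of the FGF ligands and receptors, 9 were tested, 3 rose, 2 fell and 4 did not pass (median -0.21). The share called was 55.6%, against the 45.4% of all genes. Fgf5 rose from 31.6 ± 6.29 to 89.6 ± 6.14 TPM (1.46), the receptor genes Fgfr2 from 6.22 ± 1.03 to 13.1 ± 3.57 TPM (1.04) and Fgfr1 from 51.4 ± 5.04 to 79.8 ± 5.65 TPM (0.59). Fgf8, a ligand of the primitive streak, fell from 86.0, 35.6 and 36.9 TPM to 0.25, 0.39 and 4.11 TPM (-5.07, SE 0.94, edgeR adjusted p = 0.00526). Without EpiLC replicate 3, the library highest in streak markers, its log2 fold change was -7.31. Fgf8 was not tested with the filter of 10 counts in every library. Its highest ESC value was in replicate 1, where Dusp4 and Dusp6 were also highest, and the relation was not tested. Fgf17 fell from 32.4 ± 3.98 to 1.42 ± 0.609 TPM (-4.57, and -3.82 with limma on log2(TPM + 1)), and Fgf4, the main autocrine ligand of ESCs, had 59.7 ± 16.1 and 48.9 ± 5.09 TPM and did not pass (-0.34, edgeR adjusted p = 0.189).

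Of the other ETS factors, 17 were tested, 0 rose by edgeR, 9 fell and 8 did not pass (median -0.58). The share called was 52.9%, against the 45.4% of all genes. At an unadjusted p under 0.05, 2 were higher in edgeR, and DESeq2 and limma each called 1 higher, Ets2. Without ESC replicate 1, edgeR also called Ets2 higher. The largest falls were those of Spic (-5.10, edgeR adjusted p = 8.71e-04), from 4.32 ± 0.104 to 0.120 ± 0.125 TPM, and of Ets1 (-1.39, 0.00720) and Elk3 (-1.74, 0.0241). The call of Elk3 was lost without EpiLC replicate 1 (-1.76, 0.0750), EpiLC replicate 2 (-1.83, 0.0641) or EpiLC replicate 3 (-1.63, 0.0843). Without ESC replicate 2, the library rich in fibroblast markers, the log2 fold change of Elk3 was -1.02 and still passed. That of Spic was -6.14 without EpiLC replicate 1 and -2.25 with limma on log2(TPM + 1). Spic was not tested with the filter of 10 counts in every library. At 10.7 ± 3.57 and 8.52 ± 6.02 TPM in ESCs, neither Ets1 nor Elk3 came near the level of Etv5.

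Of 5 regulators of the PEA3 factors, 2 rose, 2 fell and Cic did not pass, at 37.0 ± 3.34 TPM before and 41.2 ± 5.30 TPM after differentiation (0.07, edgeR adjusted p = 0.632). The share called was 80% of these 5 genes, against the 45.4% of all genes. Atxn1l, a partner that stabilizes Capicua, rose from 19.6 ± 2.01 to 30.5 ± 1.27 TPM (0.59, edgeR adjusted p = 0.00198). The related Atxn1 fell from 1.61 ± 1.21 to 0.353 ± 0.046 TPM (-2.21, edgeR adjusted p = 0.0171), a call lost without any 1 EpiLC replicate (adjusted p from 0.0570 to 0.0641, log2 fold changes from -2.26 to -2.11). Without ESC replicate 2, the log2 fold change of Atxn1 was -1.46 and still passed. With limma on log2(TPM + 1), a scale that shrinks changes of low genes, it was -0.84 and did not pass (adjusted p = 0.0603). Rfwd2 (Cop1) and Det1, components of the ubiquitin ligase that degrades PEA3 proteins, had log2 fold changes of 0.19 (edgeR adjusted p = 0.0350) and -0.38 (0.0423). Both calls were lost without ESC replicate 1 (edgeR adjusted p = 0.106 and 0.0861) or EpiLC replicate 1 (0.126 and 0.145), that of Rfwd2 also without ESC replicate 2 (0.0590) or EpiLC replicate 3 (0.0984), and that of Det1 without ESC replicate 3 (0.0883) or EpiLC replicate 2 (0.151). The call of Det1 was also lost with no filter (0.0663), upper-quartile normalization (0.0619) and limma on log2(TPM + 1) (0.0534).

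The list of other genes known to respond to ERK in various cells held falls and no rises. Of 16 tested, 0 rose by edgeR, 10 fell and 6 did not pass, with a median log2 fold change of -1.61. The share called was 62.5%, against the 45.4% of all genes. The count of rises was also 0 at an unadjusted p under 0.05 and by DESeq2 and limma. Egr1, Fos and Fosb, immediate early genes that also respond to serum, were among them. The log2 fold changes of Fos and Fosb were -7.12 and -8.135, and -6.49 and -6.65 with limma on log2(TPM + 1). Egr1 had 430, 295 and 340 TPM in ESCs and 43.1, 50.3 and 17.5 TPM in EpiLCs (-3.32, SE 0.38, edgeR adjusted p = 8.21e-04). Serum was present in ESC medium and absent from EpiLC medium, so the effects of serum and of cell state on these genes cannot be told apart.

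The genes whose pattern over the 6 libraries was nearest to that of Dusp6 were sought among 9207 genes averaging 10 CPM or more, by the root mean square difference of centred log2 CPM. Nearest were Mpdz, which encodes a PDZ domain scaffold protein (0.068), at 10.7, 8.72 and 7.76 TPM in ESCs against 21.7, 22.1 and 17.9 TPM in EpiLCs, the pseudogene Tmem181b-ps (0.119) and Zfp612 (0.124). Among the other 9 genes described here, Etv1 came nearest, at rank 280, and Spry2 at rank 517, whereas Dusp4, with its larger rise, came at rank 2344. Etv5 was farthest, at rank 6909.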

How the data were processed

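Polyadenylated RNA was read as single-end, strand-specific reads of 76 nt from 3 ESC and 3 EpiLC libraries, grouped by their labels. The authors trimmed reads with cutadapt 1.16, mapped them with STAR 2.5.2a and deposited RSEM 1.3.0 expected counts per gene (mm10 RefSeq genes), which are not normalized and divide reads shared between genes. The authors also deposited TPM, scaled by RSEM for transcript length and library. All 12 deposited columns of the 6 libraries were used for the levels or tests given here.

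Expected counts (4.27% to 4.65% not whole) were rounded, normalized by TMM (factors 0.979 to 1.02) and tested with edgeR 4.0.16 in R 4.3.3 without covariates. With filterByExpr, 14468 of 24736 genes were retained. The Benjamini-Hochberg adjustment ran over all of these. Code was tested on simulated data. The floor of 3 counts covers counting error only. The labels name biological replicates without saying what separates them, so p-values measure the spread between these libraries, which may be partly technical.

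The 10 genes, the pathway lists and the marker lists were chosen with earlier results of these data known. Named in each list were up to 3 genes with the largest log2 fold change each way (adjusted p at most 0.05, mean of 1 CPM or more), all MAP kinase phosphatases, Spry3, Spred3, Cic, the markers and the 3 genes nearest to Dusp6. Alternatives were DESeq2 1.42.0, DESeq2 size factors or upper-quartile factors in edgeR, no filter, 10 counts in every library, limma 3.58.1 on log2(TPM + 1) or log2(TPM + 0.1), a replicate block and leaving out each library. Paralog ratios used log2 TPM.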

Additional observations from a re-analysis of the deposited data

How the results depend on the processing

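Of 140 values for the 10 genes under the alternatives, 127 kept their direction and side of the threshold, and the exceptions concerned Spry1, Spry4, Spred1, Spred2 and Etv4. Leaving out 1 library gave 4 to 6 genes called higher and 1 to 2 called lower among the 10, 12 to 16 higher and 22 to 36 lower among the other pathway genes (18 and 33 with all libraries), and 2144 to 3572 higher and 2100 to 3609 lower among all genes (3267 and 3304 with all libraries). Of these fits, each without 1 library, the lowest counts over all genes came without EpiLC replicate 1 and the highest without ESC replicate 2. Upper-quartile normalization gave 3457 higher and 3074 lower, and limma on log2(TPM + 1) 3843 and 2848, so that the higher share of calls went from 49.7% to 57.4%.

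The log2 fold change of Spred1, near 0, changed sign with DESeq2 size factors in edgeR (-0.0053) and with DESeq2 (-0.0054), and lay from -0.068 to 0.13 without 1 library. Among other genes that did not pass with all libraries, sign changes occurred without 1 library for Cic (-0.0074 to 0.16), Dusp2 (-0.30 to 0.27), Dusp8 (-0.42 to 0.086), Dusp9 (-0.41 to 0.0014), Dcn (-0.73 to 1.22), Thy1 (-0.27 to 0.66), Postn (-2.57 to 0.88) and Nkx1-2 (-2.26 to 0.82). Of these, Nkx1-2 was called lower without EpiLC replicate 3 (edgeR adjusted p = 0.0326) and Thy1 higher without ESC replicate 2 (edgeR adjusted p = 0.0430). On log2(TPM + 0.1) and log2(TPM + 1), Dusp2 was at 0.038 and 0.021, Dcn at 0.36 and 0.026, and Nkx1-2 at -0.84 and -0.49. The cause of these changes was not tested.

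The labels do not say whether same-numbered libraries were paired, and this was not settled here. Deviations from the group mean correlated between same-numbered libraries with r across genes of 0.0067, 0.19 and 0.17, and 2 of 3 ESC libraries matched best with their own number. With the replicate block, 6085 genes were called against 6571 without it, 5828 of them shared, and the 10 genes kept 5 higher and 1 lower. The block turned Dcn to 0.11 and Nkx1-2 to -1.002. It ended the calls of Nf1 (edgeR adjusted p = 0.0766), Ksr1 (0.0752), Rfwd2 (0.0725), Det1 (0.0576) and Msgn1 (0.0523) and gave calls for Dusp10 (-0.66, 0.0188) and Twist2 (-1.46, 0.0338), and the rises among other RAS-ERK inhibitors were 3 in place of 5. Within replicate numbers, the paralog ratios gave exact sign-flip p from 0.25, the smallest that 3 pairs allow, to 1.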

Other observations

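The number of expected counts behind 1 TPM of a gene depends on the length of the transcripts to which RSEM assigned the reads. For 8 of the 10 genes this number varied by under 1% over the libraries, after scaling for the library. It varied by 1.40% for Spry1 and 1.79% for Spred1, against a median of 0.0990% over 10771 genes with more than 50 counts in every library. Which isoforms differed was not tested.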
